A study of Mus musculus with 11 samples.

Results

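Complement is a set of plasma and tissue proteins that mark microbes and dying cells for removal. C1q, the recognition unit of the classical pathway, is assembled from the A, B and C chains encoded by C1qa, C1qb and C1qc, and in most tissues it is made by macrophages. Bound C1q starts a protease cascade that cleaves C4 and C2 and then C3, the protein on which all pathways meet. The alternative pathway, which needs factor B and factor D, amplifies that cleavage. The C1 inhibitor restrains the start of the classical pathway. In the lung, C3 and factor B are also made locally by epithelial and connective tissue cells.

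Described here are 9 complement genes of mouse lung, out of 14351 genes with a probe set: the 3 C1q chains, C4b, C3, Cfb, Cfd, Serping1 and the receptor gene C3ar1. They were taken from a list of names, and each gene was read from the probe set with the highest mean over the 11 arrays. Each of the 9 had 1 probe set. Cfb and Cfd belong to the alternative pathway, so the set is wider than C1q and the classical pathway. C1qa was selected on its measured log2 values over the 4 groups, above all on the gap between genotypes in total RNA. Those values are given as a description, with no test. Of the 9, 8 passed the filter on low values, a log2 value of at least 5 on at least 2 arrays, and C3ar1 did not.

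The arrays held lung RNA of Balb/c mice. Wild-type mice were compared with mice carrying 4ebp1-/-/4ebp2-/-, the loss of both repressors of the cap-binding factor eIF4E. Total RNA was measured on 3 arrays for each genotype. Polysomal RNA, which came from pooled gradient fractions 7 to 10 and so from messages with at least 3 ribosomes, was measured on 2 wild-type and 3 knockout arrays. All mice were moved to AIN-93M purified diet at 5 weeks of age, and the labels give no agent, sex or age at collection. The knockout mice came from another laboratory and the wild-type mice from a commercial breeder, so genotype and source colony cannot be told apart. Nothing in the labels ties each array to its own animal, and a p-value here therefore reflects array-to-array spread that may be technical. In lung, fewer cells of a type and less RNA per cell cannot be told apart.

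Values are log2 intensities made by the authors with GCRMA, and levels are compared only within a probe set. On the 11 arrays, probe sets that failed the filter had medians between 2.30 and 2.49 log2, called the floor below. The surfactant gene Sftpc lay between 13.9 and 16.2 log2 and the club cell gene Scgb1a1 between 16.3 and 16.5. The liver list (Alb, Apoa1 and others) had none of its 7 genes above the filter, with no value over 3.60. Wild-type total array 3 stood apart from wild-type total arrays 1 and 2. By the set letters of the labels it was in set B, and wild-type total arrays 1 and 2 were in set A. Of the knockout total arrays, array 1 was in set A and arrays 2 and 3 in set B. For wild-type total RNA, array 3 and its set therefore cannot be told apart. The neutrophil gene S100a8 was at 14.4 on array 3 against 11.7 and 10.98 on arrays 1 and 2, and Sftpc at 13.9 against 15.6 and 15.8. The tested neutrophil genes had a mean of 11.29 on array 3 against 10.20 and 9.93. Of these, Lcn2 was lowest on array 3 and Ltf lay between. The tested alveolar type 2 cell genes had a mean of 13.33 against 13.59 and 13.75. Of these, Sftpb was highest on array 3 (11.01 against 10.51 and 10.64) and Sftpa1 nearly level. What set array 3 apart was not tested. Array 3 also held the lowest wild-type total value of C1qa, C1qb, C3, C4b, Cfb, Cfd and Serping1, so their differences are given with and without it.

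The C1q chain genes lie side by side on chromosome 4 (GRCm38.p6), C1qb at chr4:136880126-136886200, C1qc at chr4:136889801-136892936 and C1qa at chr4:136895916-136898844, within 18.7 kb. The promoters of C1qb and C1qc are shown because these chains were to be compared with C1qa. Each sequence runs from 250 bases before the annotated start through the first 10 transcribed bases, on the minus strand, as given by RefSeq (GRCm38.p6), at chr4:136886191-136886450 for C1qb and chr4:136892905-136893164 for C1qc. Capitals mark GAGGAA, searched on both strands, which is a core of the sites of PU.1, a transcription factor of macrophages.
C1qb: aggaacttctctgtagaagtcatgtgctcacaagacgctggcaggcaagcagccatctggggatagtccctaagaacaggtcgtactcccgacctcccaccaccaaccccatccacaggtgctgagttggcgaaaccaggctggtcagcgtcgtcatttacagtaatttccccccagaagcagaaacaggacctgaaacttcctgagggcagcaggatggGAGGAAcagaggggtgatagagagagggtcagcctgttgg
C1qc: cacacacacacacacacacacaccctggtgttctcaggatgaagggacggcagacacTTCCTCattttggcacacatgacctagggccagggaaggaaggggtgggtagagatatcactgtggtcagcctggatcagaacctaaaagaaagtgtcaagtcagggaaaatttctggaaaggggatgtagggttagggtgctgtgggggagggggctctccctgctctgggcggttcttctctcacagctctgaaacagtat

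The marked letters began 30 bases before the start in C1qb and 193 bases before it in C1qc, there on the opposite strand. Of 32851 windows of the same length in the promoter table, 24.1% held them. Messages that begin with a C followed by pyrimidines, called TOP messages, are known to be held back by the 4E-BPs. The promoter table held 5 of the 9 genes (C1qb, C1qc, C3, Cfd and C3ar1) and had no entry for C1qa, C4b, Cfb and Serping1. None of those 5 annotated starts was a C followed by 4 pyrimidines, and 2.51% of all windows had one. A match or its absence describes these letters only.

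C1qa, the gene of the A chain, was at 3.93, 3.93 and 3.49 log2 on the wild-type total arrays and at 7.29, 7.88 and 8.20 on the knockout total arrays. On polysomal arrays it was at 11.67 and 11.49 in wild type and at 10.97, 11.37 and 11.23 in knockout. All 4 groups were separate, in the order wild-type total, knockout total, knockout polysomal, wild-type polysomal. In total RNA the mean was 3.78 ± 0.25 (SD, n = 3) in wild type and 7.79 ± 0.46 (n = 3) in knockout. On polysomes it was 11.58 ± 0.13 (n = 2) and 11.19 ± 0.21 (n = 3). The wild-type total values lay below the filter of 5 log2, near the dim end of the scale, where GCRMA intensities are least exact.

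C1qb, the gene of the B chain, was at 10.84, 10.96 and 10.82 log2 on wild-type total arrays and at 11.25, 11.17 and 11.32 on knockout total arrays. Polysomal values were 12.28 and 12.11 in wild type and 11.65, 12.11 and 11.92 in knockout. Every knockout total array was above every wild-type total array, while the polysomal groups overlapped. C1qb had the same order of group means as C1qa over a much narrower range. In total RNA it was higher in knockout by 0.37 log2 units (SE 0.12, 1.29-fold, n = 3 and 3, limma, Benjamini-Hochberg adjusted p = 0.050, just under the threshold of 0.05). Omitting any of 9 arrays ended that call, wild-type total array 3 among them (0.35 without it, limma adjusted p = 0.090). In polysomal RNA it differed by -0.30 (SE 0.13, n = 2 and 3, limma adjusted p = 0.16), which did not pass.

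C1qc, the gene of the C chain, was at 4.58, 4.58 and 4.60 log2 on wild-type total arrays and at 5.94, 5.86 and 4.99 on knockout total arrays. In polysomal RNA the values were 9.88 and 8.81 in wild type and 8.75, 9.15 and 9.13 in knockout. The total groups did not overlap and the polysomal groups did. Like C1qa, C1qc was dim in wild-type total RNA and bright on polysomes, and it passed the filter mainly through the polysomal arrays. In total RNA it was higher in knockout by 1.01 log2 units (SE 0.30, 2.01-fold, limma adjusted p = 0.037). Omitting any of 7 arrays ended that call. The wild-type total values lay below the filter of 5 log2, where GCRMA intensities are least exact. They spanned 0.02 log2 units and the knockout total values 0.95, while limma used 1 spread for all groups. In polysomal RNA the difference was -0.34 (95% interval -1.08 to 0.41, limma adjusted p = 0.55), which did not pass, and without wild-type polysomal array 1 it was 0.19.

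**Figure D1:**
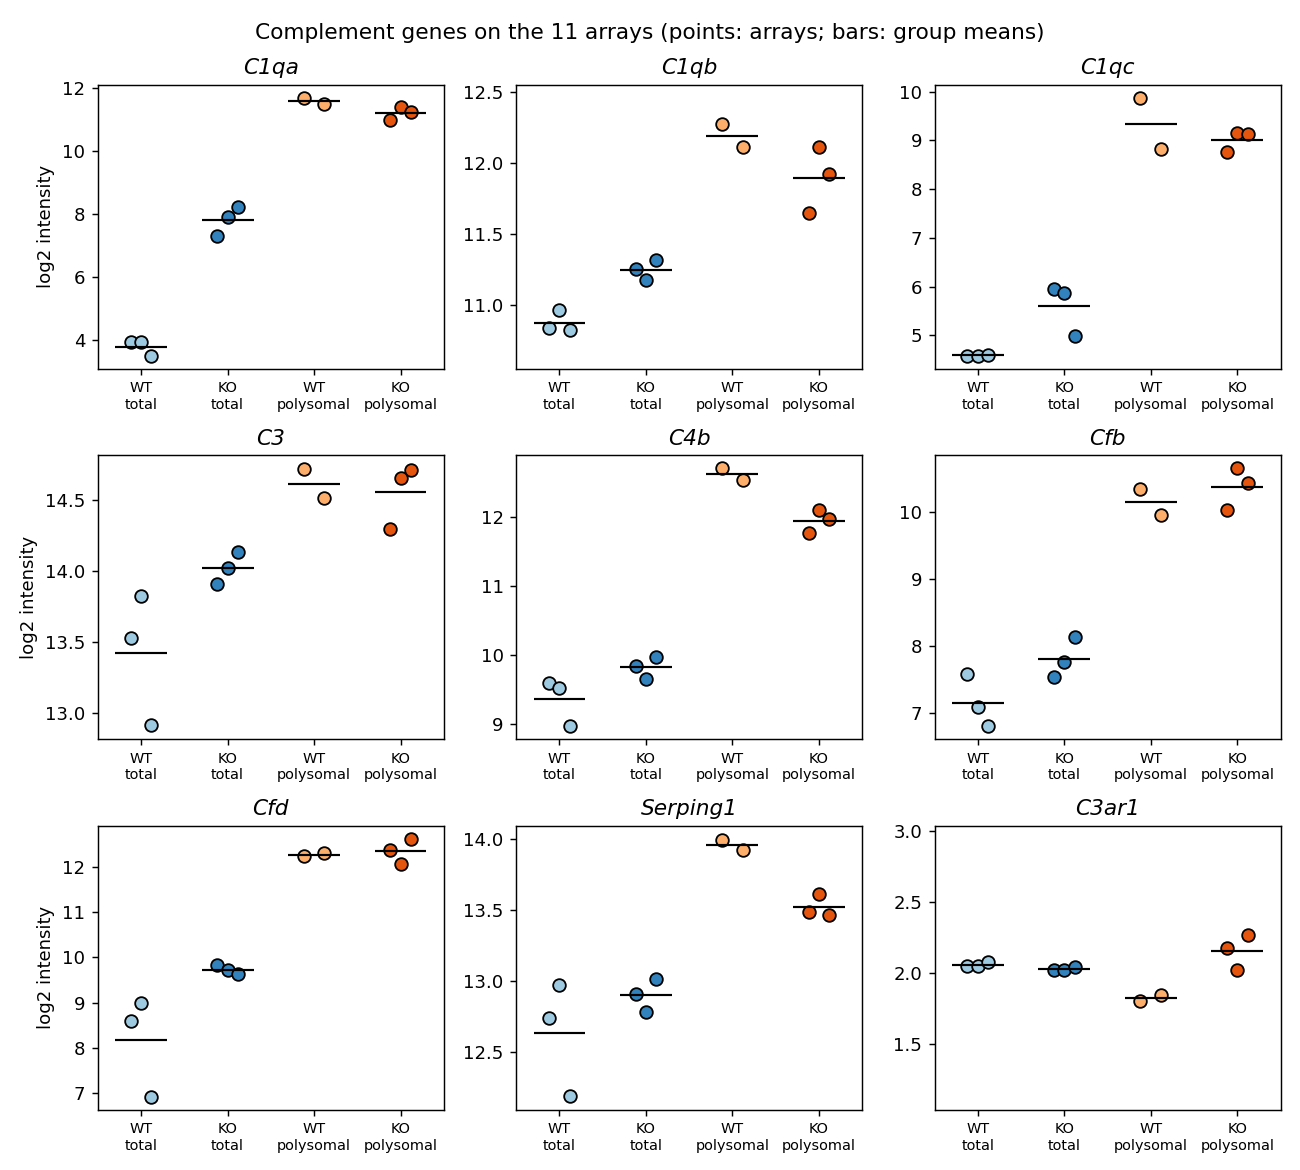
Log2 intensity of the 9 complement genes (y axis, each panel on its own scale) on the wild-type (WT) and knockout (KO) arrays of total and polysomal RNA. Points are arrays and bars are group means. The C1qa panel spans 3.49 to 11.67 log2, the C1qb panel 10.82 to 12.28 and the C1qc panel 4.58 to 9.88, with the wild-type total arrays lowest in each.

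In total RNA C1qb and C1qc thus shared the direction of C1qa and not its size. Side by side, the knockout minus wild-type difference in total RNA was 4.01 for C1qa, 1.01 for C1qc and 0.37 for C1qb. Without wild-type total array 3 it was 3.86, 1.02 and 0.35. On polysomes it was -0.39, -0.34 and -0.30. In wild type 23 genes, C1qa and C1qc among them, had a mean under 5 log2 in total RNA and at least 9 on polysomes. In total RNA 15 of the 23 were higher in knockout by more than 1 log2 unit, with a median of 1.34 and a range of -0.07 to 4.01. Pef1 was at 4.00, next to C1qa, and C1qc ranked 15th. Choosing genes by a low wild-type total value favours a higher value in knockout. The labels give each array a set letter without explaining it. Between arrays of set A the total RNA difference was 3.36 for C1qa, 1.36 for C1qc and 0.35 for C1qb, and between arrays of set B it was 4.55, 0.82 and 0.42. Each such set held 1 or 2 arrays of a genotype, and no test was made. On the polysomal arrays all 3 chains had the same order, wild-type array 1 above 2, and knockout array 2 above 3 above 1, an order that C4b and Cfb had also.

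The mean level of core macrophage markers overlapped between genotypes in both RNA kinds. Of 12 core macrophage genes (Csf1r, Adgre1, Ctss and others) 9 were tested, and in total RNA 1 rose, the lysosomal protease Lgmn (0.69, SE 0.12, limma adjusted p = 0.0038), and none fell. At an unadjusted p under 0.05 none fell either. The mean log2 level of these 9 genes was 10.25 to 10.32 on wild-type total arrays, 10.27 to 10.49 on knockout total arrays, 10.89 to 10.97 on wild-type polysomal arrays and 10.86 to 10.98 on knockout polysomal arrays. Of 12 markers of interstitial macrophages 9 were tested, and in total RNA 2 rose, Apoe (1.25, SE 0.27) and the scavenger receptor Stab1 (0.62, SE 0.14), and none fell by limma, with Lyve1 lower at an unadjusted p under 0.05. Of 10 alveolar macrophage genes 9 were tested, and in total RNA 2 rose (Cd9 and Car4) and 4 fell, Ear2 among them, against 17.2% and 5.97% of all genes tested. On polysomes the core gene Csf1r (-0.39) and the alveolar macrophage genes Chil3 (-0.89) and Ear1 (-0.80) fell, and no gene of those lists rose by limma. Of the interstitial macrophage genes 1 rose and 1 fell there. Of all genes tested 8.36% rose and 6.77% fell. The core gene Aif1 was higher by 0.82 and did not pass (limma adjusted p = 0.14). The mean log2 level of the 9 interstitial macrophage genes on polysomes was 9.92 to 10.18 in wild type and 9.78 to 10.05 in knockout. The mean log2 level of the 9 alveolar macrophage genes did not overlap on polysomes, at 11.95 to 12.11 in wild type and 11.58 to 11.69 in knockout. On total arrays it was 10.52 to 10.89 in wild type and 10.51 to 10.58 in knockout. The part of macrophages in the C1q differences was not tested.

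The 8 genes whose log2 profile was most like that of C1qa over the 11 arrays were Arhgef1, Mlf2, Arhgdia, Rnf167, Cd82, Ppp5c, Icam1 and Ccnd3, with Pearson r from 0.992 to 0.996. All points share the contrast between total and polysomal RNA, and 1604 of 8084 genes had r over 0.9. By this measure C1qb ranked 630th (r = 0.949) and C1qc 931st (r = 0.935), so neither was among these 8. With Spearman's rho C1qb ranked 58th and C1qc 939th. Without single arrays C1qb ranked from 353rd to 879th and C1qc from 306th to 1142nd, so their ranks were not firm. The 8 names were not firm. With Spearman's rho none of the 8 was shared, and leaving out 1 array kept 4 to 8 of them.

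C4b encodes C4, the substrate of the C1 complex. It was at 9.59, 9.52 and 8.97 log2 on wild-type total arrays and at 9.84, 9.66 and 9.97 on knockout total arrays. On polysomal arrays it was at 12.70 and 12.54 in wild type and at 11.76, 12.10 and 11.97 in knockout. The groups were separate in both RNA kinds, with knockout higher in total RNA and lower on polysomes. In polysomal RNA C4b fell by 0.67 log2 units (SE 0.19, 1.60-fold, n = 2 and 3, limma adjusted p = 0.042), and omitting any of 8 arrays ended that call. In total RNA the difference was 0.46 (SE 0.17, limma adjusted p = 0.079), and 0.27 without wild-type total array 3. C4a, a near copy of C4b in mice, has no probe set under that name here, so signal from it in the C4b probe set cannot be told apart.

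C3 encodes the protein whose cleavage all pathways share. It was at 13.53, 13.83 and 12.91 log2 on wild-type total arrays and at 13.91, 14.02 and 14.13 on knockout total arrays. In polysomal RNA the values were 14.72 and 14.51 in wild type and 14.29, 14.66 and 14.71 in knockout. The total groups did not overlap and the polysomal groups did. The total RNA difference was 0.60 (SE 0.21, 95% interval 0.13 to 1.07 before adjustment, limma adjusted p = 0.070), which did not pass. It was 0.34 without wild-type total array 3, and 0.80 and past the threshold without wild-type total array 2 (limma adjusted p = 0.022). In polysomal RNA it was -0.06 (95% interval -0.59 to 0.47, limma adjusted p = 0.90).

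Serping1 encodes the C1 inhibitor, which blocks the proteases bound to C1q. It was at 12.74, 12.97 and 12.19 log2 on wild-type total arrays and at 12.91, 12.78 and 13.01 on knockout total arrays, with overlap. Polysomal values were 13.99 and 13.92 in wild type and 13.49, 13.61 and 13.46 in knockout, without overlap. Neither difference passed. In total RNA it was 0.27 (SE 0.17, limma adjusted p = 0.29), or 0.05 without wild-type total array 3, and in polysomal RNA -0.44 (SE 0.19, adjusted p = 0.16). Without wild-type total array 3 the polysomal difference passed (limma adjusted p = 0.023).

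Cfd encodes factor D, the protease that cleaves factor B, and is also known as adipsin for its high level in fat cells. It was at 8.60, 8.99 and 6.92 log2 on wild-type total arrays and at 9.84, 9.73 and 9.63 on knockout total arrays. In polysomal RNA the values were 12.24 and 12.29 in wild type and 12.37, 12.06 and 12.62 in knockout. The total groups did not overlap and the polysomal groups did. In total RNA Cfd rose by 1.56 log2 units (SE 0.43, 2.95-fold, limma adjusted p = 0.028). The difference was 0.94 without wild-type total array 3 (limma adjusted p = 0.0061), and the call ended on omitting any of the 3 knockout total arrays or when only the total arrays were fitted (limma adjusted p = 0.092). In polysomal RNA the difference was 0.08 (95% interval -0.99 to 1.15, limma adjusted p = 0.94).

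Some fat cell genes had the same order over arrays as Cfd. Adipoq, the fat cell hormone adiponectin, was at 6.96, 8.22 and 6.07 log2 on wild-type total arrays and at 8.38, 7.95 and 6.86 on knockout total arrays. Polysomal values were 9.75 and 10.36 in wild type and 9.43, 8.64 and 10.19 in knockout. Within each of the 4 groups the arrays had the same order for Adipoq as for Cfd, and so did those for Car3. On the knockout total arrays Cfd spanned only 0.20 log2 units. How many of all genes share its order was not counted. Of 11 adipocyte genes 6 were tested, and the other 4 (Cidea, Cidec, Pnpla2 and Fabp4) had another order on the knockout total arrays. None passed in total RNA (limma, adjusted p from 0.051 for Pnpla2 to 0.99 for Fabp4, with Pnpla2 the only one at an unadjusted p under 0.05). The mean log2 level of these 6 was 6.93 to 7.96 on wild-type total arrays, 7.50 to 7.97 on knockout total arrays, 9.76 to 10.53 on wild-type polysomal arrays and 9.18 to 10.22 on knockout polysomal arrays. In polysomal RNA 1 of the 6 tested adipocyte genes fell by limma and none rose, against 6.77% and 8.36% of all genes. The fat hormone genes Lep and Retn were below the filter. The part of fat cells in the Cfd difference was not tested.

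Cfb encodes factor B of the alternative pathway. It was at 7.58, 7.08 and 6.80 log2 on wild-type total arrays and at 7.53, 7.77 and 8.13 on knockout total arrays, with overlap. In polysomal RNA the values were 10.35 and 9.96 in wild type and 10.03, 10.66 and 10.45 in knockout, also with overlap. Neither difference passed. In total RNA it was 0.66 (SE 0.24, limma adjusted p = 0.079), or 0.48 without wild-type total array 3, and in polysomal RNA 0.22 (SE 0.27, adjusted p = 0.63). Without wild-type total array 1 the total RNA difference was 0.87 and passed (limma adjusted p = 0.042). C3ar1, the gene of the receptor for the C3a fragment, was at 2.02 to 2.08 log2 on total arrays and at 1.81 to 2.27 on polysomal arrays, below the floor, so no level or difference is read from it.

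Of the 7 tested genes other than C1qa, 3 rose in total RNA (C1qb, C1qc and Cfd), none fell and 4 did not pass, against 17.2% of all 8085 genes tested that rose and 5.97% that fell. Their median difference was 0.60 log2 units, against 0.09 for all genes. In 5 of the 7 every knockout total array lay above every wild-type total array and in none below, against 28.0% and 14.0% of all genes. In polysomal RNA 1 of the 7 fell (C4b) and none rose, against 6.77% and 8.36% of all genes. Their median there was -0.30 and that of all genes -0.01, and 2 of the 7 (C4b and Serping1) were lower and none higher without overlap, against 25.2% and 23.8% of all genes. None of the 7 fell in total RNA or rose in polysomal RNA at an unadjusted p under 0.05 either. The genes were chosen with results of these arrays known, so these counts describe them and give no support to a pattern.

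**Figure D2:**
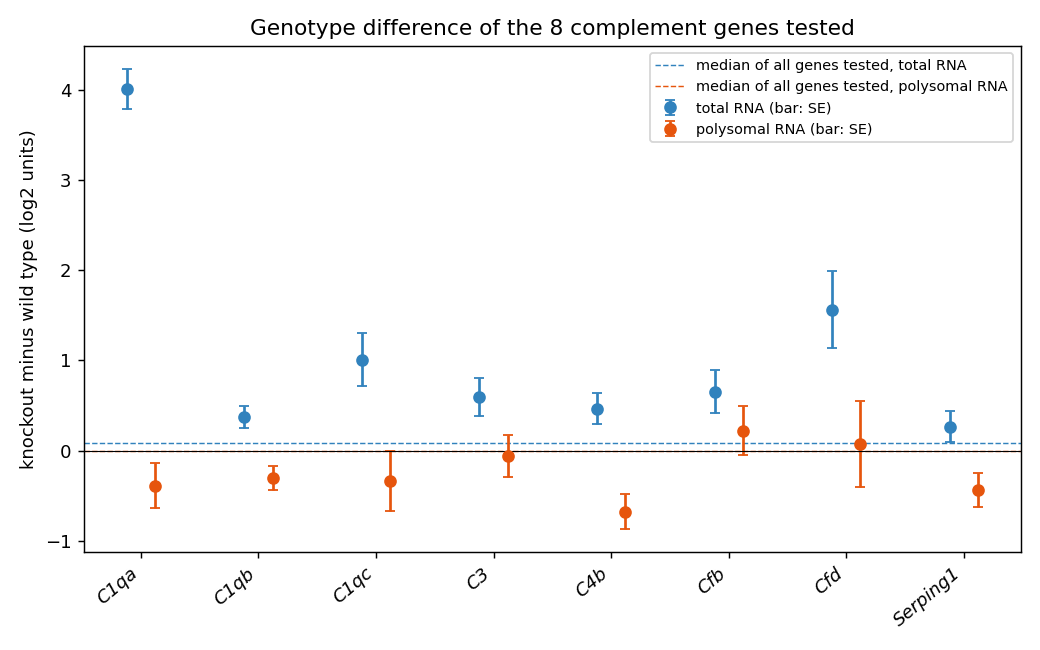
Knockout minus wild-type difference in log2 units (y axis) of the 8 complement genes that passed the filter, in total RNA (blue) and polysomal RNA (orange), with SE bars from limma. Dashed lines are the medians of all genes tested, 0.09 in total and -0.01 in polysomal RNA. C1qa stands at 4.01 in total RNA and the other 7 between 0.27 and 1.56.

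Whether genotype shifted a message differently on polysomes than in total RNA is asked by the interaction, the polysomal difference minus the total difference. C4b was lower by this measure, at -1.14 log2 units (SE 0.26, limma adjusted p = 0.015), and C1qb at -0.67 (SE 0.18, adjusted p = 0.027), so 2 of 7 passed, against 14.2% of all genes lower and 8.06% higher. Omitting any of 4 arrays ended the call for C1qb, and among single arrays only wild-type polysomal array 1 ended that for C4b (-1.06 without it, limma adjusted p = 0.050, just over the threshold). C1qc stood at -1.35 (SE 0.45, limma adjusted p = 0.056), Cfd at -1.48 (SE 0.64, adjusted p = 0.13), Serping1 at -0.71, C3 at -0.66 and Cfb at -0.43, none of which passed. C1qc ran from -1.88 to -0.82 without single arrays, and passed without knockout total array 3 (-1.65, limma adjusted p = 0.023) or wild-type polysomal array 2 (-1.88, adjusted p = 0.026). C3 was at -0.40 and Cfb at -0.25 without wild-type total array 3, and neither passed. Without that array, Cfd (-0.86, limma adjusted p = 0.032) and Serping1 (-0.48, adjusted p = 0.046) passed as well, as they did without wild-type total array 2 (-1.89 and -0.87). C1qa, given without a test, was at -4.40, and the median of all genes was -0.13.

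All 8 genes were brighter in polysomal than in total RNA of both genotypes. In wild type the difference was 7.80 log2 units for C1qa, 4.76 for C1qc, 4.10 for Cfd, 3.26 for C4b, 3.00 for Cfb, 1.33 for Serping1, 1.32 for C1qb and 1.19 for C3. All 7 tested genes passed (limma adjusted p from 3.2e-07 to 0.0011), against 44.5% of all genes that were higher and 27.9% that were lower. In knockout it was 3.40 for C1qa, 3.41 for C1qc, 2.62 for Cfd, 2.12 for C4b, 2.57 for Cfb, 0.62 for Serping1, 0.65 for C1qb and 0.53 for C3. All 7 passed there too (limma adjusted p from 3.7e-06 to 0.049), against 39.5% of all genes higher and 25.7% lower. The call for C3, which had the smallest difference, ended on omitting any of 8 arrays. C1qc passed the filter mainly through the polysomal arrays, so its difference was favoured by the filter.

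Every one of the 8 had a smaller polysomal difference in knockout than in wild type. Over all 8085 genes a least-squares line of the knockout difference on that in wild type had a slope of 0.684. Array-to-array spread in the wild-type values alone lowers such a slope. It therefore cannot show by itself that the difference was smaller in genes at large. For a wild-type difference as large as that of C1qa this line gives 5.32 log2 units in knockout, and C1qa was at 3.40, lower by 1.92. The other 7 lay between 0.28 below the line and 0.53 above it, where the SD of all genes about the line was 0.41. C1qb was 0.24 below, C4b 0.10 below and C1qc 0.17 above it. C1qa was selected on values that enter its point, and its wild-type total values are dim, so its distance from the line is a description only.

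**Figure D3:**
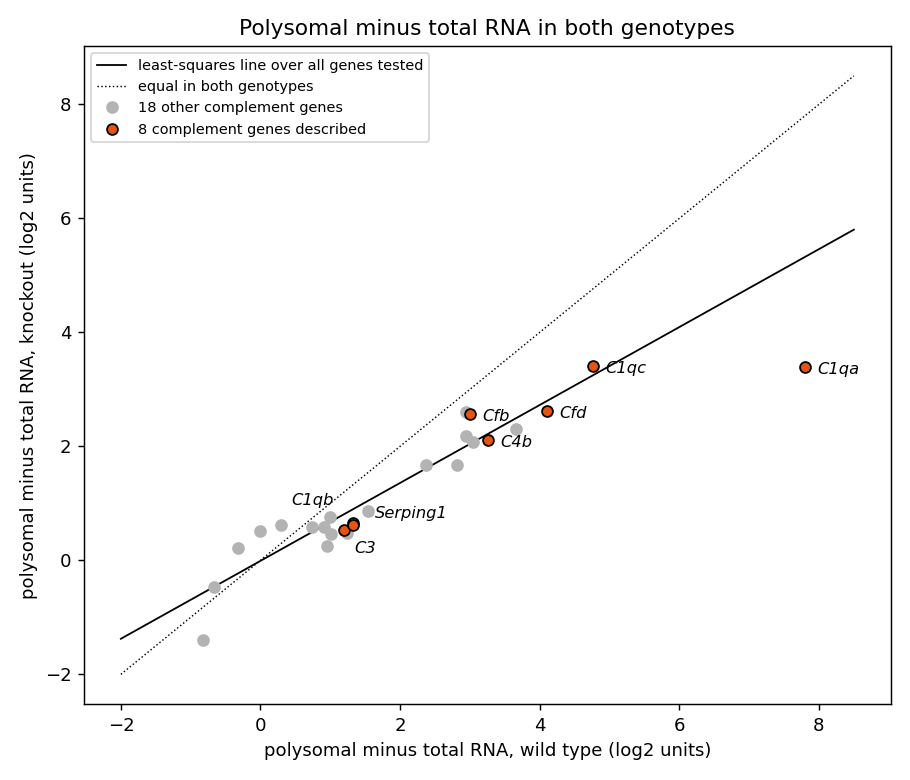
Polysomal minus total RNA in log2 units in wild type (x axis) and knockout (y axis) for the 8 complement genes that passed the filter (orange) and 18 other complement genes (grey). The solid line is the least-squares line over all 8085 genes (slope 0.684) and the dotted line marks equal values. C1qa lies 1.92 below the solid line.

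Other genes of the system were taken from lists of 46 names, of which 39 had a probe set and 18 were tested. In total RNA 4 of the 18 rose and 1 fell, near the background of 17.2% and 5.97%, and 13 did not pass. Those that rose were Susd4, a membrane regulator (0.57, SE 0.12, limma adjusted p = 0.0098), the complement receptor integrin genes Itgax (0.54, SE 0.12, adjusted p = 0.011) and Itgb2 (0.50, SE 0.15, adjusted p = 0.039), and Hc, which encodes C5 (0.38, SE 0.10, adjusted p = 0.023).

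In polysomal RNA 6 of the 18 fell and 1 rose, against 6.77% and 8.36% of all genes. The count of 6 was 0 without wild-type polysomal array 1 and 2 or 3 without any other polysomal array. The proteases that act next to C1q and C4b were among those that fell, C2 by 0.89 (SE 0.19, limma adjusted p = 0.016) and C1ra by 0.58 (SE 0.15, adjusted p = 0.029). C2 had a mean of 11.27 log2 in wild-type (n = 2) and 10.38 in knockout polysomal RNA (n = 3). C1ra, the C1r protease, was at 12.68 and 12.62 in wild type and at 11.97, 12.14 and 12.12 in knockout. Also lower were Cfp, properdin of the alternative pathway (-0.77, SE 0.21), the regulator Cd55, which speeds the decay of C3 convertases (-0.79, SE 0.22), Itgax (-0.59, SE 0.13) and C1qbp (-0.43, SE 0.10), with limma adjusted p from 0.017 to 0.037. Cd93, once described as a C1q receptor, rose by 0.50 (SE 0.15, limma adjusted p = 0.049). The Cd93 call ended on omitting most single arrays, either wild-type polysomal array among them. It ended also under quantile normalization and when only the polysomal arrays were fitted. C1s1, the partner protease of C1ra, was at -0.40 (SE 0.35, limma adjusted p = 0.50). C1rb and C1s2, close copies of C1ra and C1s1 in mice, have no probe set under those names here, so their signal cannot be told apart.

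By the interaction 8 of the 18 were lower and none higher, against 14.2% and 8.06% of all genes, and 10 did not pass. At an unadjusted p under 0.05 none was higher either. Over all alternatives the count of 8 ranged from 1 to 8. In wild type 13 of the 18 were higher in polysomal than in total RNA and 2 lower, against 44.5% and 27.9% of all genes. The line over all genes has a slope of 0.684, so a gene on it that is higher on polysomes in wild type has a negative interaction. The background of 14.2% does not allow for this. Whether the 18 departed from that line was not tested. Cfp (-1.36, SE 0.28), Itgax (-1.13, SE 0.18), C1ra (-0.97, SE 0.20), Itgb2 (-0.76, SE 0.23), C6 of the membrane attack complex (-0.71, SE 0.21), the regulator Clu (-0.69, SE 0.22), Susd4 (-0.57, SE 0.18) and C1qbp (-0.54, SE 0.14) were lower, with limma adjusted p from 0.0048 to 0.048. Genes of the lectin pathway, Masp1, Masp2, Mbl1 and Mbl2, and the late components C8a, C8b, C8g and C9 were below the filter.

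**Figure D4:**
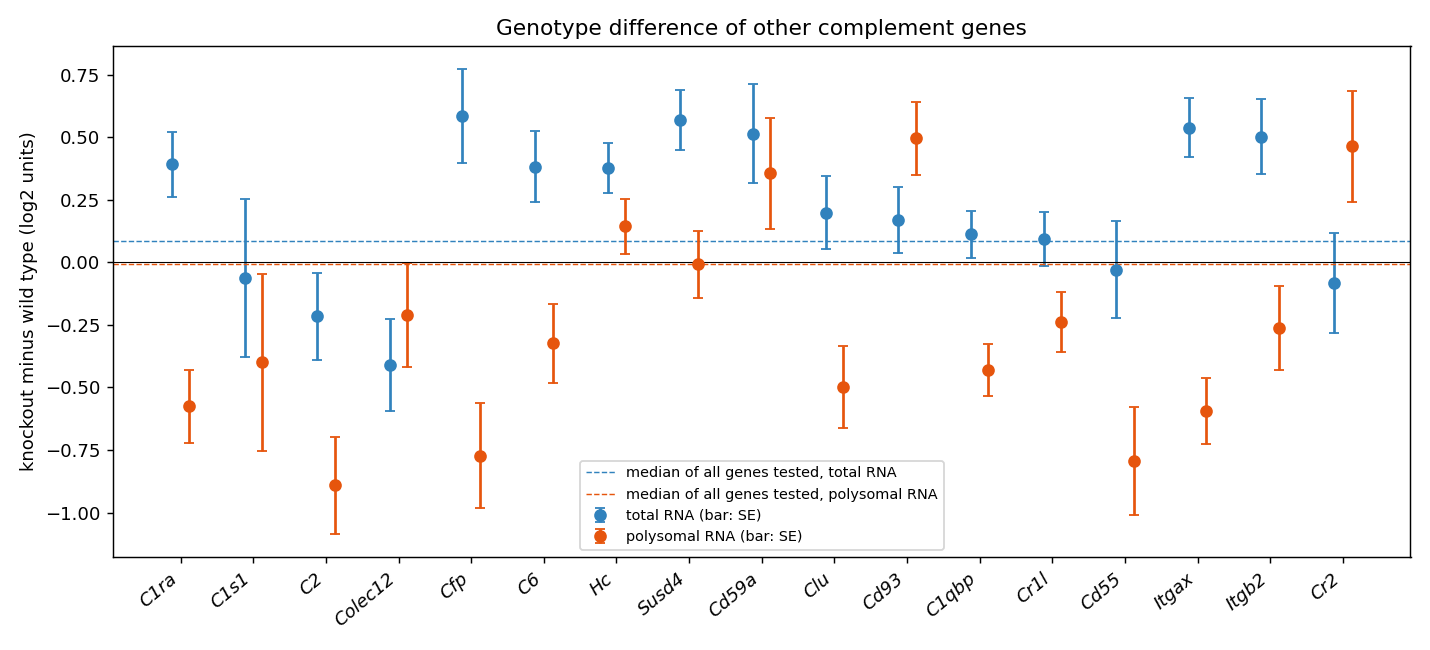
Knockout minus wild-type difference in log2 units (y axis) of 17 of the 18 other complement genes tested, ordered by role, in total RNA (blue) and polysomal RNA (orange), with SE bars from limma and dashed medians of all genes tested. Of the genes plotted, C2 stands lowest in polysomal RNA at -0.89.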

How the data were processed

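Per the submitters' processing notes, the authors processed the scans with GCRMA, a method that adjusts background by probe sequence, normalizes and sums up each probe set. The software version and the probe grouping are not given in the sources used here. The deposited values were read as log2 from their range, 0.73 to 16.7. The labels' protocols state 100 ng of input and a kit that amplifies RNA repeatedly, which can distort levels.

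Probe set names are RefSeq accessions. Of 26180, 15228 matched 1 gene each in RefSeq (GRCm38.p6). Exactly the values of an earlier probe set were held by 7538 of the 26180. The main fit kept those of them that passed the filter. limma (version 3.58.1, R 4.3.3) fitted 1 mean per group over 11 arrays to 13802 probe sets (7 residual degrees of freedom). Tests were two-sided, Benjamini-Hochberg adjusted over all of them, threshold 0.05, and were tested on simulated data. Depth has no meaning for arrays, whose number limits the precision.

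The genes and lists were chosen with earlier results of these data known. All members were named. In each other complement list up to 4 genes that passed a genotype comparison were named by smallest p, and in marker lists up to 3. The gene of these lists that fell in total RNA is not reported here. For C1qa the 8 most correlated genes were named. Alternatives were other filters, moderation, normalizations, thresholds, blocks by set letter, fits restricted to the contrasted groups, and omission of single arrays. Another dropped exactly repeated probe set rows. Arrays of different groups with the same set letter and RNA kind had deviations from group means correlated at -0.05 to 0.12, and those with different letters at -0.12 to 0.05. Deviations from means of 2 or 3 arrays cancel within a group, so this check cannot show that the letters carry no shared effect. The letters were not used as pairs in the main fit.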

Additional observations from a re-analysis of the deposited data

Results flagged for a closer look

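For C1qb and C4b the genotype difference on polysomes differed from that in total RNA by the test of the difference itself. C1qb was at -0.67 log2 units (SE 0.18, limma adjusted p = 0.027), from 0.37 in total RNA and -0.30 in polysomal RNA. C4b was at -1.14 (SE 0.26, limma adjusted p = 0.015), from 0.46 and -0.67. Of all genes tested 14.2% were lower by this test. C1qb lay 0.24 and C4b 0.10 below the line of knockout on wild-type polysomal differences, about which the SD of all genes was 0.41. Neither passed at an adjusted p of 0.01. With the replicate block by set letter over all arrays C1qb did not pass (limma adjusted p = 0.073).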

How the results depend on the processing

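Counts are of the members other than C1qa that passed. When single arrays were left out, the count of genes higher in total RNA ranged from 0 to 3 (3 as reported), lower in polysomal RNA from 0 to 2 (1 as reported) and lower by the interaction from 0 to 4 (2 as reported). At an adjusted p of 0.01 these counts were 0, 0 and 0. With a replicate block by set letter over all arrays they were 1, 0 and 1, and with a replicate block within RNA kind the polysomal count was 0, as it was under quantile normalization and without a filter on low values. Without that filter C3ar1, dim on every array, added 1 higher call in polysomal RNA, 1 higher by the interaction and 1 lower in polysomal against total RNA of wild type. In total RNA both blocks ended the C1qc call (adjusted p = 0.052 within RNA kind and 0.069 over all arrays), the block over all arrays ended that of C1qb (0.11), and the block within RNA kind added C4b (0.0496). Polysomal differences of C3, Cfd and C1qc, none of which had passed, changed sign. C3 was at 0.067 under quantile normalization and 0.071 with the block within RNA kind, and -0.16 to 0.071 without single arrays (0.042 without wild-type polysomal array 1). Cfd was at -0.098 with the block over all arrays and -0.057 to 0.22 without single arrays, and C1qc at -0.87 to 0.19. Of 798 recomputed differences 7 changed direction, 67 lost a call and 10 gained one, and the cause was not tested. Another threshold or filter leaves a difference as it was, and so does omitting an array outside the groups compared. In those settings the direction could not change, so the share that kept it is no measure of firmness. Leaving out a wild-type polysomal array leaves 1, assumed to vary like the other groups. Each gene had 1 probe set, so another could not be tried. The other 18 complement genes had 0 to 5 higher and 0 to 9 lower calls in total RNA (9 without the filter, which adds dim genes). In polysomal RNA they had 0 to 1 higher and 0 to 7 lower calls.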

Other observations

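Among complement genes below the filter, Fcna, which encodes the lectin pathway protein ficolin A, was at 4.81 and 4.55 log2 in wild-type polysomal RNA and at 2.64, 2.72 and 3.13 in knockout polysomal RNA. On the total arrays it lay between 2.15 and 2.51. Vtn, vitronectin, was at 5.22 and 4.50 in wild-type and at 4.09, 4.38 and 4.23 in knockout polysomal RNA, and no higher than 2.46 on total arrays. These 2 genes were chosen after their values were seen, and neither was tested.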
